A study of Mus musculus with 6 samples.

Results

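The Mef2 family of the mouse consists of 4 genes, Mef2a, Mef2b, Mef2c and Mef2d, which encode transcription factors of the MADS-box class. They were taken by gene symbol from a table of read counts that holds 43074 symbols, and all 4 were among the 17433 genes with enough counts to test. The cells were C2C12, an established mouse myoblast line labelled as wild type, sequenced as bulk RNA from 6 libraries. The day 0 group (2 libraries) was not treated and grew in medium with 10% fetal bovine serum. The other groups were moved to differentiation medium with 5% horse serum for 4 days, either with DMSO (2 libraries) or with 1 mM 4-phenylbutyric acid, abbreviated 4-PBA (2 libraries). 4-PBA is known as an inhibitor of histone deacetylases and as a chemical chaperone. Day, medium and DMSO differ together between day 0 and the DMSO group, so their contributions cannot be told apart. The labels do not say whether the libraries of a group came from separate cultures, and p-values then measure the spread between these libraries, which may be technical.

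MEF2 proteins bind an AT-rich DNA element as dimers through the MADS box and the adjoining MEF2 domain. In muscle they act together with the myogenic basic helix-loop-helix (bHLH) factors MyoD and myogenin on the promoters and enhancers of contractile and metabolic genes. Class IIa histone deacetylases hold MEF2-bound genes in a repressed state in myoblasts. Calcium-dependent kinases that phosphorylate these deacetylases relieve that repression during differentiation. MEF2A and MEF2C are also phosphorylated directly by p38 MAP kinases.

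The libraries held between 47908926 and 74697397 counts. Expression is given in CPM, the counts of a gene scaled to a fixed library total, after TMM scaling, a correction for differences in library composition. Log2 fold changes and p-values come from edgeR's quasi-likelihood test, adjusted by the Benjamini-Hochberg method across the tested genes, and a gene was called at an adjusted p below 0.05. The 5 myoblast line markers (Myod1, Myf5, Des, Cdh15 and Itga7) were present in every library, with a summed level of 2160 to 2190 CPM at day 0, 5310 to 5320 CPM with DMSO and 5010 to 5050 CPM with 4-PBA. Most of this sum came from Des (on average 880.6 CPM at day 0 and 2212 with DMSO) and Itga7 (855.1 and 2413). Cdh15 and Myod1 rose as well, and Myf5 fell (50.2 and 22.85). Markers of other cells that use Mef2 genes were low: B cell markers summed to at most 0.403 CPM, neuron markers to at most 2.14 CPM, endothelial markers to at most 2.65 CPM and adipocyte markers to at most 0.412 CPM. Among the endothelial markers, Tek went from 42 and 33 counts at day 0 to 135 and 149 with DMSO and rose (log2 fold change 1.68, adjusted p 1.42e-06). Kdr (12 and 27 counts at day 0, 0 and 3 with DMSO, adjusted p 0.0008) and Pecam1 (22 and 28 counts, then 15 and 9, adjusted p 0.0486) fell. The call for Pecam1 was lost by DESeq2 (adjusted p 0.111) and without DMSO replicate 2 (log2 fold change -0.829, adjusted p 0.302). Cardiac muscle markers summed to 30.5 to 34.1 CPM, a sum in which genes moved in opposite directions between day 0 and DMSO. Gata4 fell from 31.79 and 30.6 to 22.46 and 22.47 CPM (log2 fold change -0.47, adjusted p 3.54e-08). Myh6, a cardiac myosin heavy chain gene, rose from 0.1646 and 0.1424 to 10.48 and 10.46 CPM (6.09, adjusted p 1.03e-23). Their part in the values of the Mef2 genes was not tested. In RNA from bulk cultures, a smaller share of differentiated cells and less RNA per cell cannot be told apart.

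The members resemble one another most at the 5′ end of the coding sequence, where the MADS box is encoded, so this stretch shows how alike the transcripts counted here are. The first 171 bases of the longest coding sequence of each gene in GENCODE M21 are printed below, and capitals in the last 3 mark bases that differ from Mef2a at the same position.
Mef2a: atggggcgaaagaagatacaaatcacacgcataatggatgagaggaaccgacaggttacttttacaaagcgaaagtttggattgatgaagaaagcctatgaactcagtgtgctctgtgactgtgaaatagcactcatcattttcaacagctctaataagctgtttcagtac
Mef2b: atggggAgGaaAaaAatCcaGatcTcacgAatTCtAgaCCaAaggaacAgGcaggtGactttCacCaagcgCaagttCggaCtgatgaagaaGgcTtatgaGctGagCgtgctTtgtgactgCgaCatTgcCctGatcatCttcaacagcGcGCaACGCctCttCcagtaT
Mef2c: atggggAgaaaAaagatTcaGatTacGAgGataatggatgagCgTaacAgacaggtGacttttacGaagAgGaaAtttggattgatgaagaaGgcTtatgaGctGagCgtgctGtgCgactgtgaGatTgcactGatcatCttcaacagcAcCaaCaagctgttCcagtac
Mef2d: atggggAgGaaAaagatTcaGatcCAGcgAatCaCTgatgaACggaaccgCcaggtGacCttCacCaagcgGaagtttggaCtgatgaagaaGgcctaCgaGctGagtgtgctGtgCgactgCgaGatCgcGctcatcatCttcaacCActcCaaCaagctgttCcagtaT

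Over these 171 bases Mef2c was identical to Mef2a at 81.9% of positions, Mef2d at 77.8% and Mef2b at 74.3%. The differences are scattered, and no stretch of 50 bases was shared between the annotated transcripts of any pair of members. The longest shared run was one of 31 bases, between Mef2b and Mef2c. Exons of Mef2a, Mef2b and Mef2d overlap those of a neighbouring gene in the same annotation. The overlap covers 2.06% of the exonic bases of Mef2a (Lysmd4, opposite strand), 4.42% of those of Mef2b (Borcs8, same strand) and 8.87% of those of Mef2d (1700113A16Rik, opposite strand). No overlap was found for Mef2c. Larger overlaps, on the opposite strand, were found for some list genes named below, such as Mb (27.6%, Gm49540), Hdac4 (22.4%, Gm26720) and Ckm (15.5%, A930016O22Rik). Whether the counting used strand is not given in the sources used here, so reads in these stretches cannot be assigned with certainty.

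Promoter sequences of the members were matched by symbol to RefSeq (GRCm38.p6), which gave 1 window each for Mef2a, Mef2b and Mef2d and 3 for Mef2c. The windows run from 250 bases before to 50 bases after an annotated start. They were searched on both strands for the MEF2 consensus, the E-box CANNTG and the serum response element (CArG box). CANNTG is the general element of bHLH factors, MyoD and myogenin among them. A match does not say which of them binds. The 250 bases before the start differed in base composition, with 73.2% G or C in Mef2d, 61.6% in Mef2a, 56% in Mef2b and 33.6%, 44.8% and 49.6% in the 3 windows of Mef2c. The windows of Mef2a and of the upstream start of Mef2c are shown because these genes had the larger differences between day 4 and day 0, and because they differ in the motifs found. The first is chr7:67372851-67373108 (minus strand) with the MEF2 consensus in capitals, and the second is chr13:83503784-83504033 (plus strand) with E-boxes in capitals.
Mef2a promoter: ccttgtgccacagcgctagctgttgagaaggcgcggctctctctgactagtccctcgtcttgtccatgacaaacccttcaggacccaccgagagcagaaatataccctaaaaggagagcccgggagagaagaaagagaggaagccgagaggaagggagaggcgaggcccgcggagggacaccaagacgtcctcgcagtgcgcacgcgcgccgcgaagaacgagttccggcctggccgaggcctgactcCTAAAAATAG
Mef2c promoter 1: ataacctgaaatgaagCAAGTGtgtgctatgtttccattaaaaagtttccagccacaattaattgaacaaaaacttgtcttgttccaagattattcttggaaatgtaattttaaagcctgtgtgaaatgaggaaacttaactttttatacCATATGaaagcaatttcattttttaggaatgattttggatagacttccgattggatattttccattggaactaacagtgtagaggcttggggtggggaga

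The match in Mef2a, CTAAAAATAG, spans the annotated start, from position -2 to 8. A MEF2 consensus was present in 3.19% of all 32851 windows of this length, and in no window of the other members. E-boxes, which were present in 72.3% of all windows, occurred in the windows of Mef2b (2 matches) and in 2 of the 3 windows of Mef2c (2 matches and 1 match), and not in those of Mef2a or Mef2d. No CArG box was found in these windows, against 1.63% of all windows. These matches describe letters in the reference sequence, and binding was not measured.

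All 4 members were higher after 4 days in differentiation medium with DMSO than at day 0, with Mef2c showing the largest difference of the family. In this comparison 66.3% of tested genes were called, and 33.8% were called higher. Mef2c, which encodes the member most tied to muscle differentiation, was at 7.469 and 7.521 CPM at day 0 and at 68.57 and 70.66 CPM with DMSO. Both DMSO libraries were far above both day 0 libraries, as libraries of the groups failed to overlap for 81.9% of tested genes. Mef2c thus rose 9.284-fold (log2 fold change 3.22, SE 0.0601, adjusted p 1.27e-31), and 544 tested genes had a larger log2 fold change.

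Mef2a, which is known to be present in muscle cells from early differentiation, was at 124.7 and 125.1 CPM at day 0 and at 327.5 and 338 CPM with DMSO. The groups did not overlap, and the libraries of each group lay close together. The rise was 2.664-fold (log2 fold change 1.41, SE 0.0319, adjusted p 3.33e-29). Lysmd4, the neighbour on the other strand, moved in the same direction, from 5.933 to 11.24 CPM on average (log2 fold change 0.91, adjusted p 1.9e-09), and its share in the counts of Mef2a was not tested.

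Mef2d, the member with a muscle-specific splice form that class IIa histone deacetylases and protein kinase A do not restrain, stood at 167.7 and 170.2 CPM at day 0 and at 275.9 and 282.7 CPM with DMSO. Again the groups did not overlap. The rise was 1.653-fold (log2 fold change 0.73, SE 0.0313, adjusted p 6.75e-21). The table counts genes and not splice forms, so the isoforms of Mef2 genes were not analysed here. The antisense neighbour 1700113A16Rik was at 0.3221 to 0.523 CPM over the 6 libraries and was not called.

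Mef2b, the member least like Mef2a in the coding bases shown, was the least expressed in CPM at both times. The day 0 libraries had 4.712 and 4.686 CPM and the DMSO libraries 5.515 and 6.134 CPM, from 229 to 455 counts per library. The groups did not overlap, but the DMSO libraries lay further apart than the day 0 libraries. The log2 fold change was 0.31 (SE 0.127, adjusted p 0.0302), with a 95% interval from 0.054 to 0.57. This call was not kept by DESeq2 (adjusted p 0.0831), nor without DMSO replicate 2 (log2 fold change 0.231, adjusted p 0.212), day 0 replicate 1 (0.315, 0.0881) or day 0 replicate 2 (0.308, 0.114). Adjusted p over all alternatives ran from 0.0232 to 0.212. Borcs8, whose exons overlap those of Mef2b on the same strand, had 11.07 CPM on average at day 0 and 10.28 CPM with DMSO and was not called (adjusted p 0.295).

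**Figure D1:**
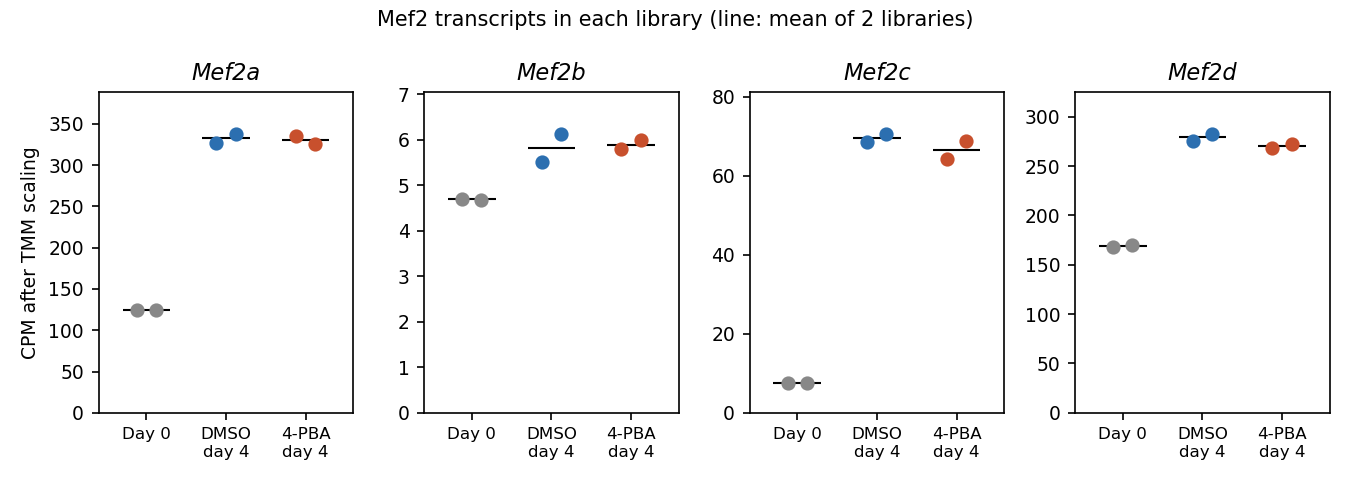
Level of each Mef2 transcript in every library, in CPM after TMM scaling on axes that start at 0; points are libraries and lines are means of 2 libraries. Day 4 points lie above day 0 points in all 4 panels, and DMSO and 4-PBA points lie at similar heights, overlapping for Mef2a, Mef2b and Mef2c.

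With 4-PBA in the medium the members differed from day 0 by nearly the same amounts, measured against the same day 0 libraries. In this comparison 65.6% of tested genes were called, 33.2% were called higher, and the libraries of 81.8% did not overlap. Mef2c rose 8.875-fold (log2 fold change 3.15, SE 0.0603, adjusted p 2.76e-31) to 64.25 and 68.88 CPM. Mef2a rose 2.644-fold (1.40, SE 0.0319, adjusted p 4.29e-29) to 334.8 and 325.8 CPM. Mef2d rose 1.599-fold (0.68, SE 0.0313, adjusted p 5.53e-20) to 268 and 272.4 CPM. The order of the members by fold was therefore Mef2c, Mef2a, Mef2d and Mef2b in both day 4 groups. Mef2b stood at 5.799 and 5.991 CPM (0.33, SE 0.128, adjusted p 0.0244). Its call was not kept by DESeq2 (adjusted p 0.0662). It was also not kept without day 0 replicate 1 (log2 fold change 0.331) or 2 (0.323), or without 4-PBA replicate 1 (0.35) or 2 (0.301), and adjusted p over all alternatives ran from 0.0194 to 0.0988.

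None of the 4 members was called between 4-PBA and DMSO at day 4, where 4.90% of tested genes were called. By an unadjusted p below 0.05, by DESeq2 and by limma-voom the number of members was also 0, where 16.7% of tested genes had an unadjusted p below 0.05. For Mef2a the log2 fold change was -0.011 (SE 0.0307, adjusted p 0.92), and the 95% interval of the change in level ran from -4.94% to 3.66%. For Mef2c it was -0.065 (SE 0.0474, adjusted p 0.552), with an interval from -10.6% to 2.2%. The interval for Mef2d ran from -7.39% to 1.02% (log2 fold change -0.048, SE 0.0308, adjusted p 0.473). Both 4-PBA libraries of Mef2d lay below both DMSO libraries, as the libraries of 45.5% of all tested genes did not overlap in this comparison. The interval was widest for Mef2b, from -15.1% to 20.2% (log2 fold change 0.015, SE 0.123, adjusted p 0.972). The sign for Mef2a and Mef2b depended on single libraries: Mef2a ranged from -0.0331 to 0.0123 and Mef2b from -0.0573 to 0.096 when each library was left out in turn.

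**Figure D2:**
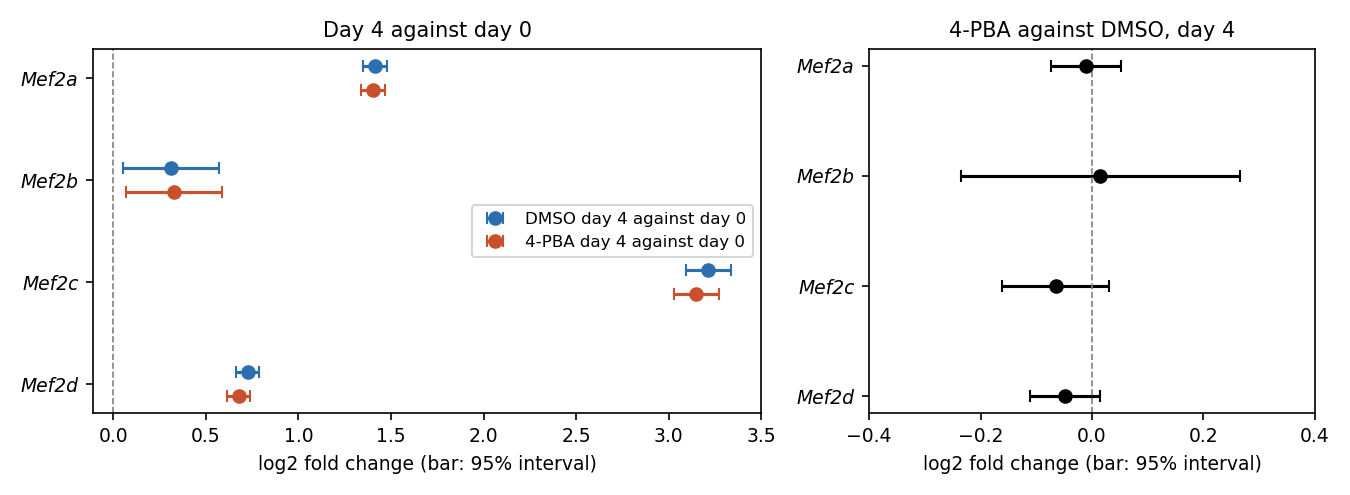
Log2 fold change of each member (points) with its 95% interval (bars), for both day 4 groups against day 0 on the left and for 4-PBA against DMSO on the right, where the axis is narrower. All intervals on the left lie above 0, Mef2b closest to it, and all 4 on the right include 0.

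Levels were compared between members per kilobase of exon, since longer transcripts collect more counts. Lengths were taken by symbol from GENCODE M21, which is annotated on another build than the one the counts were made on. With the union of all annotated exons, Mef2d was the highest member in every library and Mef2c the lowest at day 0. At day 0 Mef2d had 28.23 ± 0.286, Mef2a 8.508 ± 0.0226, Mef2b 3.347 ± 0.0128 and Mef2c 0.4769 ± 0.00234 CPM per kilobase (SD, n = 2). With DMSO, Mef2d had 46.67 ± 0.81, Mef2a 22.66 ± 0.504, Mef2c 4.43 ± 0.094 and Mef2b 4.148 ± 0.312. Mef2b and Mef2c, separate at day 0, thus lay within their spread of each other at day 4: their libraries interleaved with DMSO (3.928 and 4.369 for Mef2b, 4.364 and 4.497 for Mef2c) and with 4-PBA (4.13 and 4.267 for Mef2b, 4.089 and 4.383 for Mef2c).

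With the union of exons, members were ranked among 16469 tested genes with a length. Mef2d moved from the percentile 88.9 at day 0 to 94.2 with DMSO, Mef2a from 66.6 to 86.3, Mef2c from 28.3 to 53 and Mef2b from 48.2 to 51.8. The union is 14.68 kb for Mef2a and 15.71 kb for Mef2c, against 5.538 and 6.277 kb for their longest transcripts. These lengths are closer for Mef2b (1.404 and 1.342 kb) and Mef2d (5.985 and 5.401 kb). Ranks with other lengths were not made. The summed level of the family was 40.56 ± 0.298 CPM per kilobase at day 0, 77.91 ± 1.72 with DMSO and 76.08 ± 0.392 with 4-PBA (SD, n = 2). The make-up of that sum also differed between the times. Mef2d took 69.6% at day 0 and 59.9% with DMSO, Mef2a 20.98% and 29.09%, Mef2c 1.176% and 5.686%, and Mef2b 8.252% and 5.321%. With 4-PBA the shares were 59.34% for Mef2d, 29.58% for Mef2a, 5.567% for Mef2c and 5.518% for Mef2b.

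The length used decides which member leads at day 4. With the longest annotated transcript of each gene, Mef2d remained ahead of Mef2a at day 0 (53.44% against 38.53%), but Mef2a was ahead with DMSO (47.22% against 40.65%). With the longest coding sequence the order changed in the same way, from 54.02% for Mef2d and 41.22% for Mef2a at day 0 to 39.61% and 48.69% with DMSO. The order of Mef2b and Mef2c depended on it as well, since with these 2 lengths Mef2c was above Mef2b at day 4 (8.717% against 3.409%, and 10.48% against 1.216%, with DMSO). With the coding length it was already above Mef2b at day 0 (2.545% against 2.213%). The share of Mef2c was larger at day 4 than at day 0 with each length. The CPM ratio of a pair of genes is not corrected for length, so its value does not say which gene leads. Its change between groups does not depend on the length used. CPM of Mef2a over CPM of Mef2d was 0.743 and 0.735 in the day 0 libraries, 1.19 and 1.2 in the DMSO libraries and 1.25 and 1.2 in the 4-PBA libraries. CPM of Mef2c over CPM of Mef2a was 0.0599 and 0.0601 in the day 0 libraries, 0.209 in both DMSO libraries and 0.192 and 0.211 with 4-PBA. No test was made on shares or ratios.

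**Figure D3:**
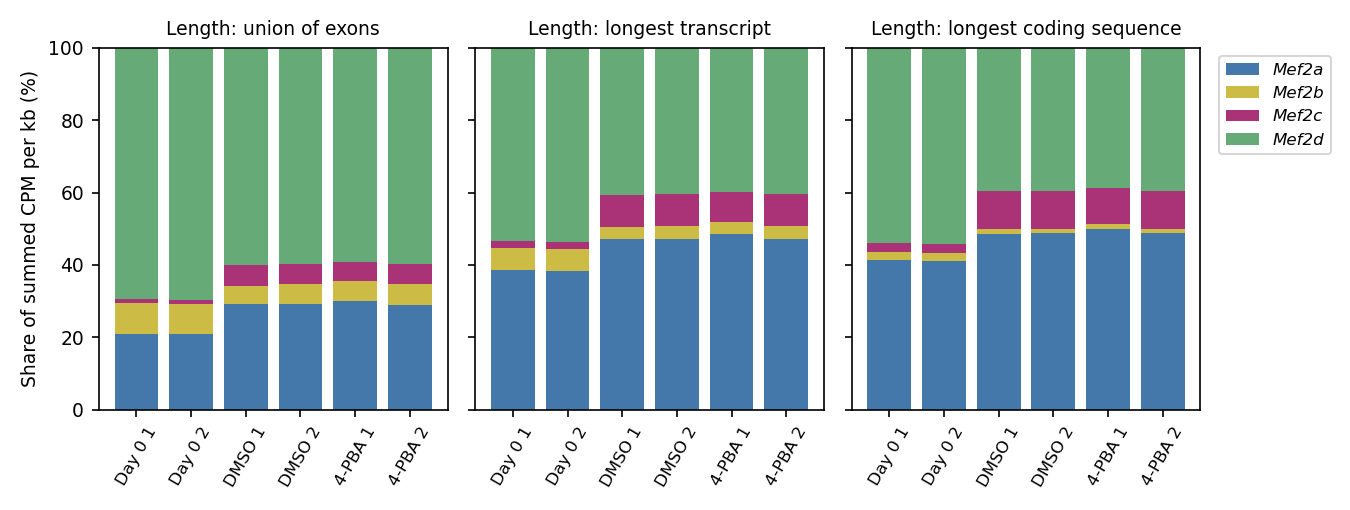
Share of each member in the summed CPM per kilobase of the family, in percent, for every library, with gene length taken as the union of exons, the longest transcript or the longest coding sequence. Mef2c (magenta) takes a larger share at day 4 in each panel, and the share of Mef2d (green) is smaller at day 4 in each; Mef2a exceeds Mef2d at day 4 only with the latter 2 lengths.

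For each member the genes with the nearest pattern over the 6 libraries were sought among 10681 genes with a mean of at least 5 CPM. Likeness was the root mean square difference of log2 CPM after each gene was centred on its own mean, so it describes shape and not level. Nearest to Mef2c were Tmem38a (0.0382), a cation channel of the sarcoplasmic reticulum, G0s2 (0.0538), an inhibitor of adipose triglyceride lipase, and Ano5 (0.0557), a membrane protein of muscle. Tmem38a went from 11.79 CPM at day 0 to 106.7 CPM with DMSO and 101.3 CPM with 4-PBA. Nearest to Mef2a were Sparc (0.0157), a secreted matrix protein, Socs2 (0.0174), a suppressor of cytokine signalling, and Sync (0.0249), an intermediate filament protein of muscle. Those of Mef2d were Fam174a (0.017), Ube2w (0.0178), a ubiquitin-conjugating enzyme, and Chrna1 (0.0179), the alpha subunit of the muscle acetylcholine receptor. Those of Mef2b were Galnt11 (0.0126), Zfp329 (0.0145) and Cfap418 (0.0188). Between members, the closest pair was Mef2b and Mef2d (0.187) and the most distant was Mef2b and Mef2c (1.35). The genes above were picked as the nearest of 10681 and the member pairs were not picked. Their values therefore cannot be set against each other. The pattern rests on 3 groups of libraries that share a count table, and many genes separate day 0 from day 4.

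Genes around the family were described through 8 lists with 82 tested genes, chosen with earlier results of these data known. Between DMSO and day 0, 70 were called, 49 of them higher and 21 lower (85.4%, against 66.3% of all tested genes, with 33.8% higher and 32.6% lower). Among the 7 bHLH partners, 4 rose and 2 fell (85.7% called). Myog, which encodes myogenin, went from 7.942 and 7.849 CPM at day 0 to 277 and 297.1 CPM with DMSO (log2 fold change 5.19, SE 0.046), and Myod1 from 95.8 and 99.06 to 111.3 and 116.1 CPM (0.22, SE 0.038). Of the E proteins that pair with them, Tcf4 rose (0.95) and Tcf3 fell (-0.39), and Myf5, a factor of the myoblast state, fell as well (-1.14). Adjusted p-values of these 5 genes were at most 3.8e-06. The remaining partners were Tcf12, which rose, and Myf6, which was not called.

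Of 9 corepressors, 4 rose and 2 fell (66.7% called, near the 66.3% of all tested genes). Hdac9, a class IIa histone deacetylase, had 15.49 and 16.71 CPM at day 0 and 95.47 and 91.14 CPM with DMSO, and so rose with the Mef2 genes (log2 fold change 2.53, SE 0.0521, adjusted p 5.29e-30). Hdac4, of the same class, rose less (0.70, SE 0.0514, adjusted p 2.57e-14), from 31.87 and 34.46 to 52.71 and 55.08 CPM. The other 2 of the class were not called: Hdac5 had a log2 fold change of -0.015 (adjusted p 0.761) and Hdac7 one of 0.016 (adjusted p 0.768), both within the spread of the libraries. Class IIa deacetylases act in complexes with Hdac3 and the corepressor encoded by Ncor1. Ncor1 rose (0.28) and Hdac3 fell (-0.36), with adjusted p-values of at most 7.69e-09.

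Of 10 coactivators, 5 rose and 4 fell (90% called, against 66.3% of all tested genes). Kat2b, a histone acetyltransferase, had a log2 fold change of 0.73 and Ncoa2, a coactivator that MEF2C is known to bind, one of 0.63. Mamstr, also called MASTR, is a muscle coactivator of MEF2 and had the largest rise of this list (1.40, SE 0.171, adjusted p 5.73e-09), from 2.181 and 1.51 CPM at day 0 to 4.628 and 4.934 CPM with DMSO. Of the 20 signalling genes 80% were called, 8 higher and 8 lower. Sik1, a kinase of class IIa deacetylases, rose from 47.53 and 45.88 to 119 and 122.8 CPM (1.37, SE 0.0399). Map2k3, an activator of p38, fell from 161.8 and 156.4 to 100 and 97.81 CPM (-0.69, SE 0.0359), and Mapk14, which encodes p38 alpha, fell as well (-0.37, SE 0.0391).

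Among regulators of muscle splicing, all 6 tested genes of the 7 listed were called, 3 higher and 3 lower (66.3% of all tested genes were called). Rbfox1 rose from 0.3704 and 0.5271 CPM to 12.06 and 14.13 CPM (log2 fold change 4.82, SE 0.169), and Ptbp1, a repressor of muscle and neural exons, fell from 454.1 and 450.5 to 217 and 199.4 CPM (-1.12, SE 0.0337). Mbnl1 rose (0.15) and Mbnl2 fell (-0.16) by smaller amounts. Of 4 genes for serum response factor and its coactivators, Mrtfb rose (0.34), and Mrtfa (-0.35) and Srf (-0.15, SE 0.0442, adjusted p 0.00427) fell. In this list 75% were called. The call for Srf was lost without day 0 replicate 1 (log2 fold change -0.106, adjusted p 0.105) and without DMSO replicate 2 (-0.0959, 0.0726), within a range of adjusted p from 0.000262 to 0.105 over all alternatives.

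Of 20 muscle genes with known MEF2-dependent promoters or enhancers, 19 were called higher and none lower (95% called, against 66.3% of all tested genes). Their median log2 fold change was 4.74 against 0.0226 for all tested genes. The largest was that of Myoz2, a Z-disc protein gene (8.06, SE 0.146), and Mb, the gene of myoglobin, went from 1.235 and 1.325 CPM to 142.8 and 156.1 CPM (6.86, SE 0.0709). Myom2, an M-band gene, had 14.98 and 15.51 CPM at day 0 and 353.8 and 386.3 CPM with DMSO (4.60, SE 0.0447). Ckm, the muscle creatine kinase gene in which a MEF2 element is a textbook case, had 1.44 and 0.4701 CPM at day 0 and 103.9 and 111.8 CPM with DMSO (log2 fold change 6.95, SE 0.281). The value was 7.84 without day 0 replicate 1 and 6.23 without day 0 replicate 2. The exception was Ppargc1a, a regulator of mitochondrial genes, which was at 2.16 and 2.763 CPM at day 0 and 1.537 and 2.049 CPM with DMSO (log2 fold change -0.46, adjusted p 0.0508). It was called lower in 5 of the 14 alternatives, with log2 fold changes of -0.471 (DESeq2 size factors), -0.489 (library size scaling), -0.475 (limma-voom), -0.617 (without day 0 replicate 1) and -0.69 (without DMSO replicate 2).

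Of 6 rapid-response genes listed as MEF2 targets, 5 rose (83.3% called, against 66.3% of all tested genes). MEF2 sites in these genes were not examined here. Klf4 had a log2 fold change of 1.26 and Klf2 one of 0.60, both genes of Krüppel-like factors. Jun, whose MEF2 site is a long-known target, was not called (0.066, adjusted p 0.103), but was called higher with the stricter filter (0.0833, adjusted p 0.0337) and without DMSO replicate 2 (0.0893, adjusted p 0.043). Only 3 of the 6 were called without day 0 replicate 1, without day 0 replicate 2 or without DMSO replicate 1. With 4-PBA against day 0, 71 of the 82 list genes were called, 48 higher and 23 lower (of all tested genes, 33.2% were called higher and 32.4% lower), and the muscle genes numbered 19 higher and 1 lower, again measured against the shared day 0 libraries.

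Although no Mef2 gene was called between 4-PBA and DMSO, 13 of the 82 list genes were, 1 higher and 12 lower (15.9%, against 4.90% of all tested genes, with 2.13% higher and 2.78% lower). Of the muscle genes 5 fell and none rose, with a median log2 fold change over all 20 of -0.152 against 0.00205 for all tested genes, and 19 of the 20 had a negative value. These counts are descriptions and no test was made on the lists, which were chosen with earlier results of these data known. Myom2 was at 321.8 and 312.6 CPM with 4-PBA, below both DMSO libraries, and fell by 14.3% (log2 fold change -0.22, SE 0.035, adjusted p 0.000123). Des, the gene of desmin, fell by 7.22% (adjusted p 0.00881) and Xirp1, an actin-binding protein gene of cell junctions in muscle, fell by 9.77% (adjusted p 0.0184). Myom1 fell by 11.3% (adjusted p 0.0316) and Stac3, a gene of excitation-contraction coupling, fell by 11.9% (adjusted p 0.0476). The call for Stac3 was lost in 10 of the 14 alternatives, among them DESeq2 size factors (adjusted p 0.0526) and library size scaling (0.063). Mb (log2 fold change -0.034) and Ckm (-0.17) were not called, with adjusted p-values of 0.766 and 0.719. Ckm was called lower when only the 4 libraries compared were fitted (-0.17, adjusted p 0.0143) and without day 0 replicate 1 (0.0243) or 2 (0.025).

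Of the regulators, Hdac4 stood at 47.73 and 47.65 CPM with 4-PBA against 52.71 and 55.08 CPM with DMSO, a fall of 11.6% (log2 fold change -0.18, SE 0.0499, adjusted p 0.0301). Ncor1 fell by 7.41% (adjusted p 0.0305). Hdac9 was at 95.27 and 102.8 CPM with 4-PBA and overlapped DMSO (0.086, adjusted p 0.334). Hdac5 (-0.051) and Hdac7 (-0.019) were also not called.

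In the p38 branch, the activator Map2k3 fell by 10.5% (adjusted p 0.00557), while Mapk14 was the 1 list gene that rose, by 10.8% (adjusted p 0.0192). Rbfox1 was at 10.57 and 9.389 CPM with 4-PBA and fell by 23.9% (log2 fold change -0.39, SE 0.106, adjusted p 0.0214), the largest relative fall among the 13. Mbnl1 fell by 7.13% (adjusted p 0.029), Mbnl2 fell by 7.61% (adjusted p 0.0256) and Mrtfb fell by 10% (adjusted p 0.0335). Among bHLH partners none was called by edgeR, DESeq2 or limma-voom. By edgeR 2 of 7 had an unadjusted p below 0.05, against 16.7% of all tested genes. Myog had a log2 fold change of 0.0052 and Myod1 one of -0.045. Among coactivators none was called by DESeq2 or by the main edgeR fit, where 2 of 10 had an unadjusted p below 0.05. Ncoa2 was called by limma-voom (-0.131, adjusted p 0.0418) and by edgeR with the stricter filter (-0.133, adjusted p 0.0437). Leaving out DMSO replicate 2 also gave a call in this list. Among rapid-response genes none was called by the 3 tools in their main fits or at an unadjusted p below 0.05. With the replicate block 1 was called, and 1 with no filter beyond 1 count. Leaving out a 4-PBA library also gave calls in this list.

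Most of the 13 calls were lost when a 4-PBA library was left out, which leaves that group with 1 library. Calls over all tested genes also fell in these fits. Without 4-PBA replicate 1 only Myom2 of the 13 was still called, and without 4-PBA replicate 2 Myom2 and Xirp1. Without replicate 1 and without replicate 2 in turn, the log2 fold change of Hdac4 was -0.178 and -0.176, that of Des -0.102 and -0.114, and that of Stac3 -0.20 and -0.164, near their values with both. That of Rbfox1 was -0.482 and -0.312. Without DMSO replicate 1 the number still called was 11, without DMSO replicate 2 it was 7, and without either day 0 library it was 8. Leaving out DMSO replicate 2, 4-PBA replicate 1 or 4-PBA replicate 2 lowered the number of muscle genes called to 3, 1 and 2 respectively. The log2 fold change of Myom1 was -0.0874 without DMSO replicate 2. DESeq2 kept 8 of the 13 and not Hdac4, Rbfox1, Myom1, Stac3 or Mrtfb. Myom2 was called under every alternative tried, with an adjusted p of at most 0.0305. Myoblast line markers moved in both directions: Des, already counted among the muscle genes, and Itga7 (-0.10, adjusted p 0.0138) were lower with 4-PBA, and Cdh15 (0.11, adjusted p 0.0171) was higher. The calls for Itga7 and Cdh15 were lost without 4-PBA replicate 1 or 2, where Itga7 was -0.0915 and -0.112 and Cdh15 0.105 and 0.116. The first was also lost without either day 0 library (adjusted p 0.0521 and 0.0514) and the second without DMSO replicate 2 (0.0568). The cardiac marker Myh6 also fell, with 4-PBA libraries at 6.942 and 8.068 CPM (-0.48, adjusted p 0.00815), a call lost without 4-PBA replicate 1 (-0.376, adjusted p 0.197). For these markers, their part in the muscle gene values was not tested.

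**Figure D4:**
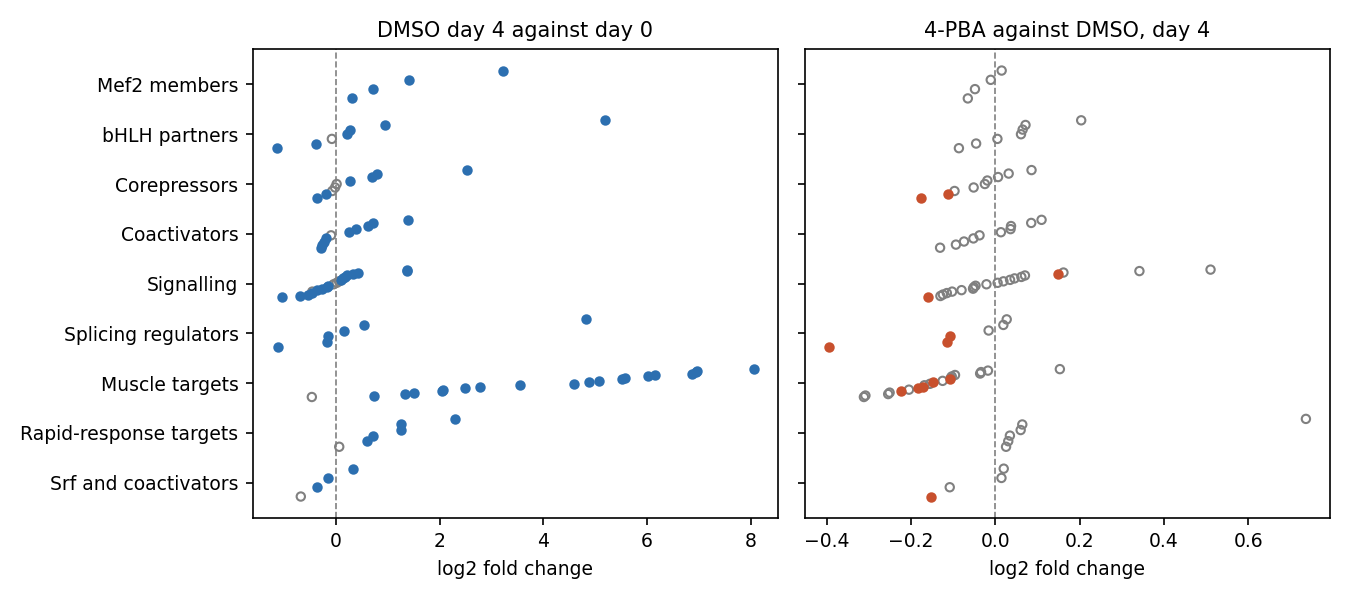
Log2 fold change of each Mef2 member and of each tested gene in the 8 lists, 1 point per gene ordered by value within a row, for DMSO against day 0 on the left and for 4-PBA against DMSO on the right, where the axis is narrower. Filled points were called at an adjusted p below 0.05 and open points were not; on the right the 4 Mef2 points are open and close to 0, and all filled points but 1 lie below 0.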

How the data were processed

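RNA was measured in 6 C2C12 libraries, prepared with a directional kit per the labels' protocols. The deposited values are raw read counts per gene symbol, made by the authors on GRCm39 per the submitters' processing notes. The aligner, counter, annotation and strand setting are not given in the sources used here. Libraries held 47908926 to 74697397 counts, and 13014 symbols had none. Counts were filtered with filterByExpr, scaled by TMM and fitted in edgeR 4.0.16 (R 4.3.3) with a robust quasi-likelihood model of the 3 group means over all 6 libraries. The fit left 3 residual degrees of freedom (median 33.4 with shrinkage) and a biological coefficient of variation of 3.74%. The script was tested on simulated data. Alternatives were DESeq2 1.42.0, limma-voom (limma 3.58.1), other scalings and filters, the 4 libraries compared, a replicate block and leaving out each library.

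The members and lists were chosen with earlier results of these data known. Named genes were the members, list genes called between 4-PBA and DMSO, in each list the 2 genes whose adjusted p between DMSO and day 0 was smallest, Hdac4, Hdac5, Hdac7, Hdac9, Myod1, Myog, Srf, and the 3 genes nearest in pattern to each member. A gene that this rule names is not reported here. Mamstr, Hdac3, Myf5, Myf6, Tcf3, Tcf12, Myoz2, Ppargc1a, Ckm, Jun, Gata4, Tek, Kdr and Pecam1 were chosen after their values were seen. Lengths, coding starts and exon overlaps came from GENCODE M21 (GRCm38) and promoters from RefSeq. The longest coding sequence stood in for a protein-based length.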

Additional observations from a re-analysis of the deposited data

How the results depend on the processing

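Each group had 2 libraries, and Mef2b had 229 to 455 counts per library. The rises of Mef2a, Mef2c and Mef2d against day 0 were called under all 14 alternatives, and no member was called between 4-PBA and DMSO under any. DESeq2 gave Mef2b a log2 fold change of 0.302 with DMSO and 0.321 with 4-PBA against day 0, neither called. Leaving out each library gave 0.231 to 0.384 and 0.301 to 0.35. List genes called between 4-PBA and DMSO numbered 8 by DESeq2 and 2 to 13 when each library was left out, and all genes called 261 to 1172. Where a library was left out, the lone library of its group was assumed to vary like the others.

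The replicate block, with the numbers of the labels as an added term, called 4, 4 and 0 members and 13 list genes between 4-PBA and DMSO, and 768 genes in all there. Deviations of same-numbered libraries correlated at -0.0279, -0.00306 and -0.0116 over genes, and the labels do not say that numbers pair libraries. The block ended the calls of Stac3 and Mrtfb between 4-PBA and DMSO.

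Signs near 0 changed for genes that were not called. Between DMSO and day 0, Hdac5 was 0.00268 with the stricter filter and -0.0469 to 0.0162 when each library was left out, and Hdac7 was -0.0121 with library size scaling and -0.0483 to 0.0793. Between 4-PBA and day 0, Hdac7 was 0.0122 with the stricter filter and -0.0189 to 0.0107. Between 4-PBA and DMSO, leaving out each library gave -0.0331 to 0.0123 for Mef2a, -0.0573 to 0.096 for Mef2b, -0.0441 to 0.0566 for Myog, -0.082 to 0.0456 for Hdac7, -0.0183 to 0.0313 for Hdac3 and -0.0903 to 0.014 for Mamstr. It gave -0.0408 to 0.0812 for Ptbp1, -0.0958 to 0.0325 for Mb, -0.0306 to 0.0975 for Jun, -0.0275 to 0.077 for Klf2, -0.0104 to 0.0737 for Klf4, -0.034 to 0.0725 for Srf and -0.0144 to 0.0434 for Mrtfa. For Pecam1 it gave -0.296 to 0.663, and for Kdr, with at most 4 counts in these libraries, -3.59 to 4.07. The cause of these changes was not tested.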
